A study of Mus musculus with 12 samples.

Results

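Adgrg1 and 8 further genes of the adhesion G protein-coupled receptor (GPCR) family were followed over 12 RNA-seq libraries of mouse fibroblasts. The 9 genes, of 54447 features counted, were chosen by name after earlier results of these data had shown Adgrg1 as the gene most raised by doxycycline (dox). The measured dox effect thus chose Adgrg1, and the dox effects of the 9 genes are given as a description with no test. The family has 21 other genes in the table, which serve as the comparison.

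The cells were NIH3T3 fibroblasts, labelled mouse embryonic fibroblasts, that carried a lentiviral insert under a dox-inducible promoter and had been selected with puromycin. The insert coded either for N-VEGF, the amino-terminal part of a long form of VEGF-A, or for NLS-N-VEGF, the same part joined to a nuclear localization sequence. The 4 groups were the NLS-N-VEGF pool off and on dox and the N-VEGF pool off and on dox, each with 3 libraries. In each group these were labelled 1_120519, 2_120519 and 2_290419, and the meaning of the suffixes _120519 and _290419 was not stated. Both populations were selected pools with the vector integrated, all 12 libraries came from such cells, and no library of dox-treated cells without an insert was analysed. An effect of dox and an effect of the insert therefore cannot be told apart, nor can the 2 inserts be told apart from the pools that carry them. It is not stated that the 3 libraries of a group came from separate cultures, so the spread between them may be in part technical.

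Adhesion GPCRs join a long extracellular region, often with adhesion domains, to a membrane part of the G protein-coupled type. Many cut themselves at a site next to the membrane, and the end freed inside the receptor can act as a tethered agonist. Their ligands are often matrix proteins or proteins on neighbouring cells, and several members signal through G proteins to RhoA. Adgrg1, also called GPR56, is known for its part in development of the cerebral cortex and in oligodendrocyte precursors, and it binds collagen type III and transglutaminase 2.

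Total counts lay between 13549331 and 18982127 per library. With 3 counts set as the floor, the lowest level visible was between 0.158 and 0.221 CPM (counts scaled to a common library size), and this floor covers counting error only. The 7 fibroblast markers were all above 3 counts and summed to between 10500 and 13200 CPM. The 5 endothelial markers summed to at most 5.01 CPM and the 5 epithelial markers to at most 1.87 CPM in any library. The 5 leukocyte markers summed to between 19.4 and 29.8 CPM, with Ptprc and Cd14 above 3 counts and Cd3e at 0. The 5 neural or glial markers summed to between 25.6 and 35.6 CPM. Of these, Mbp, Gfap, Tubb3 and Snap25 were above 3 counts and Sox10 was at 0. The summed ranges of the epithelial, leukocyte and neural or glial lists overlapped between all 4 groups. Without dox the endothelial sum was higher in NLS-N-VEGF (3.85 to 4.40 CPM) than in the N-VEGF pool (2.89 to 3.73 CPM). In the N-VEGF pool the fibroblast sum was 11700 to 13200 CPM without dox and 10800 to 11500 CPM with dox. The part of these lists in the results was not tested.

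Adgrg1 lies on chromosome 8 of build GRCm38, at chr8:94974751-95014217 on the plus strand. Its 16 annotated transcripts together cover 5421 exonic bases, and none of these bases is shared with another annotated gene. The study measured Adgrg1 by PCR with a primer pair that matched Adgrg1 transcripts only. The forward primer lies in exon 2 of a coding transcript of Adgrg1 (chr8:95002465-95002485) and the reverse primer in exon 3 (chr8:95003343-95003363), both in coding sequence, and their product is 162 bases long. The forward primer matched 14 and the reverse primer 12 of the 16 transcripts. Both are shown because they define the stretch of Adgrg1 that the study assayed apart from sequencing.
Adgrg1 forward primer: ctgcggcagatggtctacttc
Adgrg1 reverse primer: ccacacaaagatgtgaggctc

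RefSeq gives 2 starts of Adgrg1 on GRCm38.p6, and the 250 bases before each are printed because Adgrg1 was the member that moved. Capitals mark CG dinucleotides. The first window is chr8:94976859-94977108 and the second is chr8:94984149-94984398, both on the plus strand. The counts are summed over the gene and do not separate the starts.
Adgrg1 upstream of start 1: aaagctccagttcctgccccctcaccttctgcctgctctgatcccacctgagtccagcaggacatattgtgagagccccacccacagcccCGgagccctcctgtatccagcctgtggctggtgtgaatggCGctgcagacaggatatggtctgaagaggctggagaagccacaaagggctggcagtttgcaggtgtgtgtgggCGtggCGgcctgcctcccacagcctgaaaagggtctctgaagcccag
Adgrg1 upstream of start 2: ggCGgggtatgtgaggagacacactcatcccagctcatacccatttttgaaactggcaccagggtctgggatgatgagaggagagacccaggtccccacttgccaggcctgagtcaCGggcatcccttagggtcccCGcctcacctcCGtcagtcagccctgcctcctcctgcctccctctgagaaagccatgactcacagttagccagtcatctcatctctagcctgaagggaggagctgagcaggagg

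Each Adgrg1 window held 4 CG dinucleotides, at 60.8% and 59.2% G and C. Over all 32851 RefSeq windows of the same length the medians were 6 CG dinucleotides and 52.4% G and C. Among other members the windows of Adgrg6, Adgrg2 and Adgrl1 held 32, 26 and 21 CG dinucleotides, and the window of Adgrl2 held 3. Adgrl3 has 3 RefSeq starts, whose windows held 36, 18 and 18. The letters ACGTG and GCGTG, the 2 forms of the core that hypoxia-inducible factor binds, were searched on both strands. The window before start 1 of Adgrg1 held GCGTG 1 time and ACGTG 0 times, and the window before start 2 held neither. Either form was in 12 of the 26 windows of the family (GCGTG in 10, ACGTG in 3) and in 38.6% of all windows. These counts describe letters in a window and not sites in use.

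The 9 members spanned the whole range from abundant to not detected. Adgra2, a co-receptor for Wnt7 ligands in vessels of the brain, was the most abundant, between 180 and 265 CPM. The latrophilins Adgrl2 (98.3 to 153 CPM) and Adgrl1 (78.1 to 98.3 CPM), receptors for teneurins and FLRT proteins, came next. Adgre5, also called CD97 and a receptor for Cd55 and Thy1, lay between 7.50 and 9.81 CPM, and Adgrl3, also a latrophilin, between 4.49 and 8.93 CPM. Adgrg1 covered the widest range, from 0.863 to 42.3 CPM. Adgrg2, known from the epididymis, Adgrg6, required for Schwann cell myelination, and Adgrd1 were below detection, with at most 2, 1 and 1 counts in any library. Adgrg2 had 4 counts over all 12 libraries, Adgrg6 had 3 and Adgrd1 had 1, so no dox effect of these genes was measurable at this depth. Thus 6 of the 9 members passed the filter on low counts and could be fitted.

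**Figure D1:**
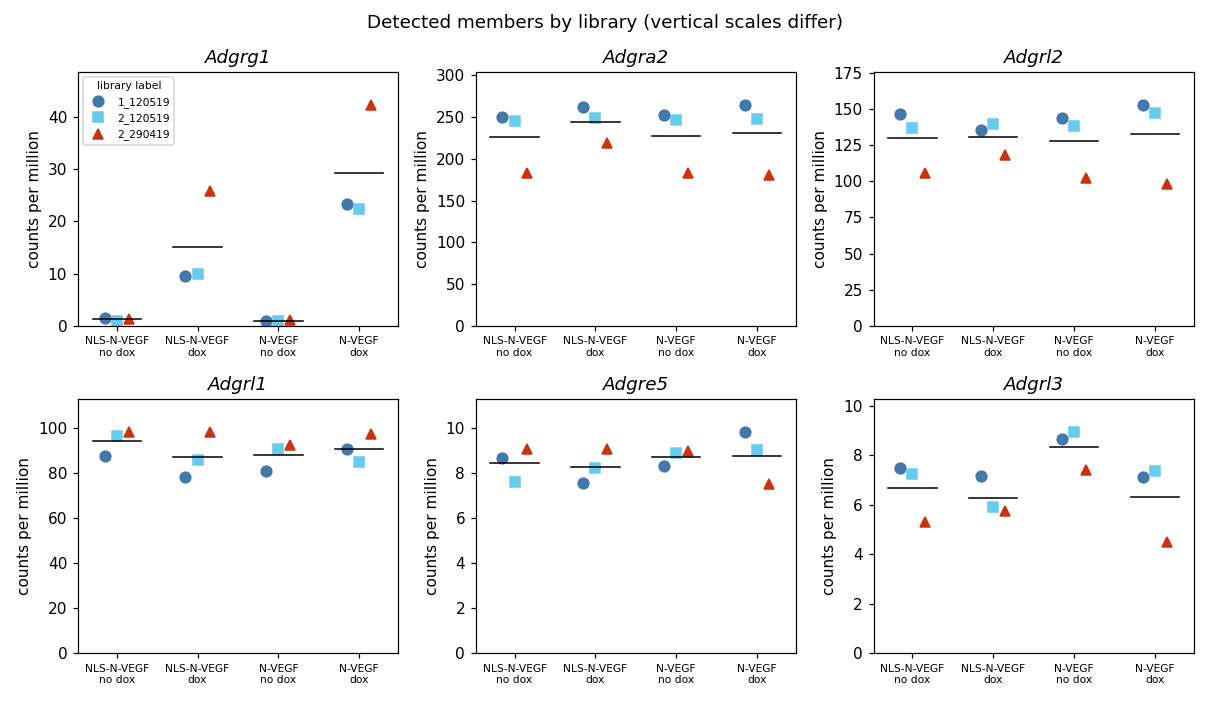
Level of each detected member in CPM (vertical axis from 0, scales differ between panels) by group, with 1 point per library, shape and colour giving the library label, and a black line at the group mean of 3 libraries. Adgrg1 separates the dox from the no-dox groups, while in Adgra2, Adgrl2 and Adgrl3 the library labelled 2_290419 (red triangle) is the lowest of each group.

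Per kilobase of merged exons, Adgra2 stood first, with a mean of 40.2 CPM per kilobase over the 12 libraries and a range of 31.2 to 45.8 that no other member reached. Adgrl1 followed at 10.5 and Adgrl2 at 9.19 CPM per kilobase, and the ranges of these neighbours (9.10 to 11.4 and 6.92 to 10.8) overlapped. Their order also turned with the length used, since per kilobase of the longest transcript Adgrl2 had 21.6 and Adgrl1 11. Adgre5 had 2.28 and Adgrl3 0.389 CPM per kilobase. Adgrg1 changed its place in this order with dox. Without dox it was the lowest of the 6 detected members, at 0.233 ± 0.0453 CPM per kilobase (SD, n = 3) in the NLS-N-VEGF pool and 0.187 ± 0.0280 in the N-VEGF pool. With dox it had 5.41 ± 2.07 CPM per kilobase in the N-VEGF pool, where its 3 libraries (4.30, 4.13 and 7.81) were all above those of Adgre5 (2.61, 2.40 and 1.996). In the NLS-N-VEGF pool with dox it had 2.79 ± 1.70 CPM per kilobase, and its libraries overlapped with those of Adgre5.

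In the NLS-N-VEGF pool the Adgrg1 counts were 26, 16 and 18 without dox and 179, 136 and 435 with dox, in the order 1_120519, 2_120519 and 2_290419. Scaled to CPM, these were 1.495, 1.01 and 1.29 off dox and 9.59, 10.01 and 25.8 on dox. In the N-VEGF pool the counts were 16, 14 and 20 without dox and 373, 413 and 632 with dox, or 1.01, 0.863 and 1.17 CPM against 23.3, 22.4 and 42.3 CPM. All 6 dox libraries were above all 6 no-dox libraries, and among the dox libraries 2_290419 was the highest in each population.

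Between libraries of the same label, Adgrg1 was 6.41-fold, 9.95-fold and 20-fold higher with dox in the NLS-N-VEGF pool. In the N-VEGF pool it was 23.2-fold, 26.0-fold and 36.3-fold higher. The fitted log2 fold change of dox was 3.57 (SE 0.44) in the NLS-N-VEGF pool and 4.84 (SE 0.45) in the N-VEGF pool. Within suffix _120519 alone, with 2 libraries per group, these were 2.94 (SE 0.19) and 4.59 (SE 0.18). Among the 12058 features with a mean of at least 1 CPM, Adgrg1 had the highest log2 fold change in both populations. The row of the construct insert came next, with 3.31 (SE 0.67) and 4.62 (SE 0.67). Etl4 followed, with 1.46 (SE 0.27) and 2.06 (SE 0.27).

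The other 5 detected members showed dox differences close to their spread, apart from Adgrl3 in the N-VEGF pool. In the NLS-N-VEGF pool their log2 fold changes lay between -0.11 (Adgrl1, SE 0.10) and 0.11 (Adgra2, SE 0.17). In the N-VEGF pool they lay between 0.01 (Adgre5, SE 0.14) and 0.05 (Adgrl2, SE 0.18), apart from Adgrl3 at -0.39 (SE 0.21). With the replicate label as a block, Adgrl3 there was at -0.405 (SE 0.141). Adgrl3 had 8.67, 8.93 and 7.40 CPM off dox in the N-VEGF pool, where the dox libraries had 7.12, 7.38 and 4.49 CPM. It was lower with dox in all 3 pairs of the same label there. The highest value with dox, 7.38 CPM, lay just below the lowest without, 7.40 CPM. How many of all features separated in this way was not counted. Adgrl3 was called for dox in the N-VEGF pool in 0 of 20 alternatives to the fit. In the NLS-N-VEGF pool Adgrl3 had 7.48, 7.23 and 5.28 CPM off dox and 7.18, 5.89 and 5.74 CPM on dox, and the ranges overlapped. Over the 6 members the median log2 fold change was -0.01 and 0.03, against 0.00 for all features in each population.

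**Figure D2:**
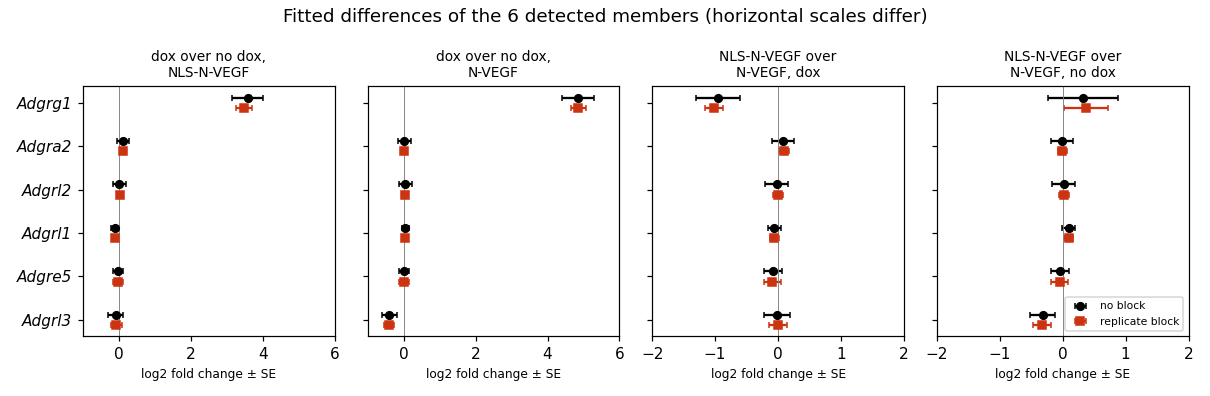
Log2 fold changes (horizontal axis, ± SE) of the 6 detected members from the fit without (black circles) and with (red squares) the replicate label as a block, scales differing between panels. Adgrg1 lies at 3.57 and 4.84 for dox in the first and second panel and at -0.95 for NLS-N-VEGF over N-VEGF with dox, while the other 5 members lie between -0.405 and 0.12 in all panels.

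Features were called by edgeR's quasi-likelihood test at a Benjamini-Hochberg adjusted p under 0.05. The difference of the dox effects asks whether the members responded differently in the NLS-N-VEGF and the N-VEGF population. The choice of the members did not use this difference directly, but Adgrg1 was chosen on dox effects in the same libraries. The same limit holds for the comparison of the populations with dox. None of the 6 members was called (0 of 13608 features were called, 0%, and none of the 6 had an unadjusted p under 0.05 in edgeR without a block). DESeq2 called 0 of the 6 as well, with 1 at an unadjusted p under 0.05, beside 79 of all 13608 features. For Adgrg1 the dox effect in the NLS-N-VEGF pool minus that in the N-VEGF pool was -1.27 on the log2 scale (SE 0.66, adjusted p = 1). With the replicate label as a block it was -1.39 (SE 0.38, edgeR, unadjusted p = 0.00187), again with an adjusted p of 1. Adgrg1 was then the 1 member at an unadjusted p under 0.05, as were 464 of all 13608 features. Every pair of the same label had a smaller ratio in the NLS-N-VEGF than the N-VEGF pool. The other differences lay between -0.15 (Adgrl1, SE 0.14) and 0.30 (Adgrl3, SE 0.29).

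With dox, Adgrg1 was lower in the NLS-N-VEGF than the N-VEGF pool in all 3 pairs of the same label, with ratios of 0.411, 0.447 and 0.609. The group means were 15.1 ± 9.21 and 29.3 ± 11.2 CPM (SD, n = 3), and the ranges overlapped only through library 2_290419 of the NLS-N-VEGF pool. The log2 difference was -0.95 (SE 0.35) and was not called without a block (edgeR, adjusted p = 1), where 0% of features were called. At an unadjusted p under 0.05 Adgrg1 was 1 of the 6 members by edgeR and DESeq2, and DESeq2 called 0. Of all 13608 features, 160 by edgeR and 128 by DESeq2 had an unadjusted p under 0.05. With the replicate label as a block it was -1.01 (SE 0.15, adjusted p = 0.0309), and Adgrg1 was then 1 of 2 called features, a share of 0.0147%. Within suffix _120519 alone it was -1.22 (SE 0.13, edgeR, adjusted p = 0.00591), where 0.0822% of features were called. Adgrg1 was called in 4 of 20 alternatives to the fit, which gave adjusted p from 0.000608 to 1. The difference was -1.58 with library 2_290419 of the dox-treated NLS-N-VEGF pool left out and -0.59 with that of the dox-treated N-VEGF pool left out.

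The insert differed between the populations in the same direction. The row of the insert had 2.57, 2.58 and 10.2 CPM in the NLS-N-VEGF pool with dox against 7.56, 8.08 and 17.9 CPM in the N-VEGF pool with dox. Its log2 difference was -1.12 (SE 0.51, edgeR, adjusted p = 1), and -1.23 (SE 0.21, adjusted p = 0.0758) with the block. Within suffix _120519 alone it was -1.60 (SE 0.21, edgeR, adjusted p = 0.0299). Leaving out the same 2 libraries gave -2.11 and -0.60. The part of the insert's level in the Adgrg1 difference was not tested.

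Adgrg1 and insert counts can be set side by side in each library. With dox the insert counts were 48, 35 and 173 in the NLS-N-VEGF pool and 121, 149 and 268 in the N-VEGF pool. There were 3.73, 3.89 and 2.51 Adgrg1 counts per insert count in the first group and 3.08, 2.77 and 2.36 in the second, and these ranges overlapped. Over the 6 dox libraries Adgrg1 spanned a 4.41-fold range of CPM and the insert a 6.96-fold range, while their ratio spanned a 1.65-fold range. Without dox the insert had 5, 7 and 12 counts in the NLS-N-VEGF pool and 5, 10 and 7 in the N-VEGF pool. These low counts gave ratios from 1.40 to 5.20. The dox libraries fall apart by population and suffix, so no correlation over these 6 libraries alone is given.

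**Figure D3:**
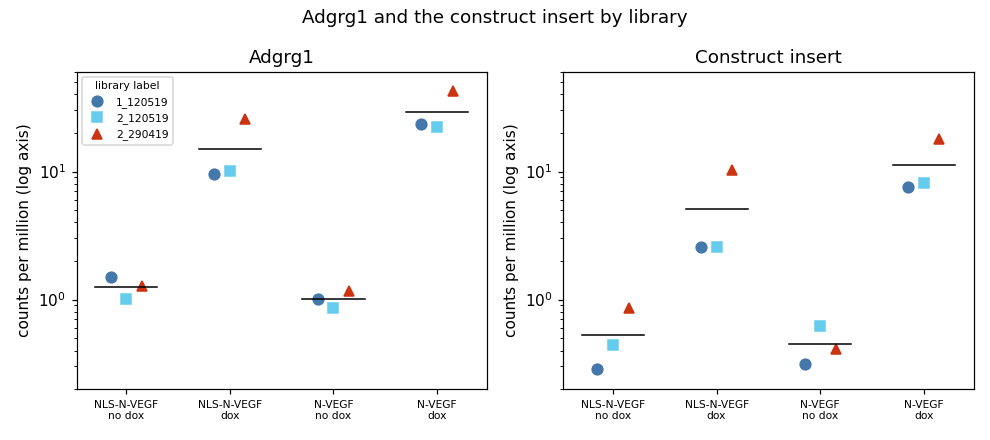
Adgrg1 (left) and the construct insert (right) in CPM on a log axis by group, with 1 point per library and a black line at the group mean of 3 libraries. Both are higher in all 6 dox libraries than in all 6 no-dox libraries, lower in the NLS-N-VEGF than the N-VEGF pool with dox at each library label, and highest with dox in library 2_290419.

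Without dox, no member was called between the populations. Adgrg1 had 1.26 ± 0.245 CPM in NLS-N-VEGF and 1.01 ± 0.152 CPM in the N-VEGF pool (SD, n = 3), a log2 difference of 0.32 (SE 0.56, edgeR, adjusted p = 1). Adgrl3 was lower in the NLS-N-VEGF pool in all 3 pairs, with ratios of 0.862, 0.809 and 0.714 and a log2 difference of -0.32 (SE 0.21, edgeR, adjusted p = 1). The other 4 members differed by at most 0.09 on the log2 scale (Adgrl1, SE 0.10). None of the 6 was called by edgeR or DESeq2, against 0% of all features, and none had an unadjusted p under 0.05 by either without a block. With the replicate block Adgrl3 was at -0.33 (SE 0.14, edgeR, unadjusted p = 0.0321, adjusted p = 0.939). An unadjusted p under 0.05 was then found for 499 of all 13608 features. With dox, the members other than Adgrg1 lay between -0.08 (Adgre5, SE 0.14) and 0.08 (Adgra2, SE 0.17).

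The suffix comparison sets the 4 libraries labelled _290419 against the 8 labelled _120519, with the 4 groups kept apart in the fit. All 4 libraries of suffix _290419 carry the same label, 2_290419, and libraries of the same label deviated together. The fit treats the libraries as independent, so its p-values do not measure the spread between labels of the same suffix. Of the 6 fitted members, 5 were called between suffix _290419 and suffix _120519 (2 higher, 3 lower), but 45.6% of all features were called in this comparison. Adgra2 had 250, 245 and 183 CPM in the NLS-N-VEGF pool without dox and 262, 249.4 and 219 with dox. The N-VEGF pool had 252, 246 and 183 CPM off dox and 265, 248 and 180 on dox. Library 2_290419 was thus the lowest of each of the 4 groups, and the fitted log2 difference was -0.40 (SE 0.05, edgeR, adjusted p = 2.5e-05).

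Adgrl2 followed the same order. It had 147, 137 and 106 CPM in the NLS-N-VEGF pool without dox and 135, 139 and 118 with dox, then 144, 138 and 102 CPM in the N-VEGF pool without dox and 153, 147 and 98.3 with dox. Its log2 difference was -0.43 (SE 0.06, edgeR, adjusted p = 3e-05), and that of Adgrl3 was -0.39 (SE 0.11, edgeR, adjusted p = 0.00682). For all of Adgra2, Adgrl2 and Adgrl3 library 2_290419 was below both libraries of suffix _120519 in all 4 groups. Adgrl1 went the other way and was highest in 2_290419 in all 4 groups, by 0.15 (SE 0.06, edgeR, adjusted p = 0.0305). The Adgrl1 call was lost in 7 of 16 alternatives, without a filter or with any of 6 libraries left out, with an adjusted p of up to 0.212. Adgre5 differed by 0.03 (SE 0.10, edgeR, adjusted p = 0.836). The library kit does not mark strand, so reads of an antisense gene cannot be told apart from those of a member, and 23.8% of the exonic bases of Adgre5, 15.6% of those of Adgrl1 and 8.91% of those of Adgrl3 lie opposite another gene.

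Adgrg1 was higher in suffix _290419 by 0.98 (SE 0.13, edgeR, adjusted p = 2.55e-05). Library 2_290419 was 2.63-fold and 1.85-fold above the mean of the suffix _120519 libraries with dox, in NLS-N-VEGF and the N-VEGF pool. Without dox it was 1.03-fold and 1.25-fold above. A fit with separate suffix effects gave 1.12 (SE 0.12, edgeR, adjusted p = 3.11e-05) with dox, where 27.5% of features were called. It gave 0.17 (SE 0.29, edgeR, adjusted p = 0.688) without dox, where 31.8% were called. The difference of these effects was 0.96 (SE 0.31) and was not called (edgeR, unadjusted p = 0.00804, adjusted p = 0.728), as for 0% of features. The insert followed the same order, at 1.54 (SE 0.19) with dox and 0.57 (SE 0.49) without.

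**Figure D4:**
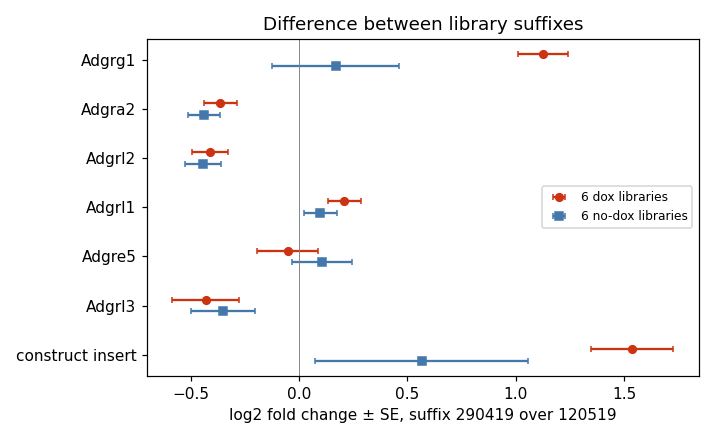
Log2 difference of suffix _290419 over suffix _120519 (horizontal axis, ± SE) for the 6 detected members and the construct insert. A single fit of all 12 libraries gave separate suffix effects for the 6 libraries with dox (red circles) and the 6 without (blue squares). Adgra2, Adgrl2 and Adgrl3 lie to the left of 0 in both, whereas Adgrg1 lies at 1.12 with dox and 0.17 without.

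Of all 30 adhesion GPCR genes in the table, 13 had 3 or fewer counts in every library, and 10 were fitted. Adgra3, of the same subfamily as Adgra2, was the most abundant of the 21 other genes. Its level in the NLS-N-VEGF pool was 53.9 ± 1.78 CPM off dox and 65.8 ± 11.3 CPM on dox (SD, n = 3), a log2 ratio of 0.29 (SE 0.16, edgeR, adjusted p = 1). With the replicate block this ratio was 0.275 (SE 0.089, edgeR, adjusted p = 0.363). The N-VEGF pool had 61.4 ± 12.9 and 59.5 ± 6.27 CPM. Adgrb2, a brain angiogenesis inhibitor receptor, lay between 3.36 and 6.10 CPM. With dox Adgrb2 was higher in the NLS-N-VEGF than the N-VEGF pool in all 3 pairs (5.52, 5.15 and 6.10 against 4.62, 3.36 and 3.68 CPM). The log2 difference of 0.53 (SE 0.17) was not called (edgeR, adjusted p = 1). Without dox it was also higher in all 3 pairs (4.72, 6.04 and 5.21 against 4.15, 4.25 and 4.66 CPM), at 0.29 (SE 0.17, edgeR, adjusted p = 1). The ranges did not overlap in either comparison, in each of which 0% of features were called.

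Adgrb3, Celsr1, Celsr3, Adgrf2, Adgrf4 and Adgrv1 were at the edge of detection, each with at most 15 counts in any library. The cadherin-like Celsr3 was called higher in suffix _290419, by 1.83 (SE 0.37, edgeR, adjusted p = 0.000722), on 1 to 15 counts per library. Its highest counts, 12, 15 and 11, were all in suffix _290419, beside 1 to 5 counts in suffix _120519. Celsr3 passed the filter on low counts only through these high libraries, so its call was in part fixed by the filter and is no test. Adgra3 was lower in suffix _290419, at -0.30 (SE 0.07, edgeR, adjusted p = 0.0027). In the comparisons of dox or of insert, 0 of the 4 fitted other genes were called by edgeR or DESeq2. At an unadjusted p under 0.05 each tool had 1 without a block, in the comparison of the inserts with dox. Of all 13608 features, edgeR had 160 and DESeq2 128 there. With the replicate block edgeR also had 1 for dox in the NLS-N-VEGF pool and 1 for the difference of the dox effects. In these 2 comparisons 989 and 464 of all features had an unadjusted p under 0.05. Over all features edgeR called 0.022% for dox in the NLS-N-VEGF pool, 0.0367% for dox in the N-VEGF pool and 0% between the inserts.

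Adgrg1 has relatives on both sides. Adgrg3 starts 3475 bases downstream and had at most 3 counts in any library, with or without dox. Adgrg5 ends 31471 bases upstream and had at most 1 count. Of 22 annotated genes within 250 kb of Adgrg1, 9 had a mean of at least 1 CPM. Among them were Cx3cl1, Ciapin1, Coq9, Polr2c and Dok4. The dox log2 fold changes of the 9 genes lay between -0.73 and 0.19, and edgeR called none in either population, with or without the block. Over all 13608 features edgeR called only 3 and 5 for dox without the block, and 17 and 15 with it. Cx3cl1, which codes for a membrane-bound chemokine, was lowest, at -0.73 (SE 0.42, edgeR, adjusted p = 1) in NLS-N-VEGF and -0.72 (SE 0.42, edgeR, adjusted p = 1) in the N-VEGF pool. With the block Cx3cl1 was at -0.651 (SE 0.223, edgeR, adjusted p = 0.414) and -0.712 (SE 0.222, edgeR, adjusted p = 0.566). It had means of 10.3 and 6.25 CPM without and with dox in the first population, and of 10.2 and 6.16 CPM in the second.

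Ligands and partners of the members were taken as a list of 28 genes, of which 16 were fitted. In the comparisons of dox and of insert 0 of 16 were called by edgeR or DESeq2, where edgeR called at most 0.0367% of all features. For dox in the NLS-N-VEGF pool 2 of 16 had an unadjusted p under 0.05 with each tool without a block, as did 318 of all 13608 features with edgeR. With the replicate block edgeR had 4 of 16, beside 989 of all features. The median dox log2 fold change of the list was 0.07 in NLS-N-VEGF and 0.01 in the N-VEGF pool, beside 0.00 over all features in each. Col3a1, which codes for the collagen that Adgrg1 binds, had 505 ± 197 CPM off dox and 400 ± 102 CPM on dox in the NLS-N-VEGF pool. The N-VEGF pool had 493 ± 235 and 392 ± 208 CPM (SD, n = 3). The log2 ratio of Col3a1 was -0.34 and -0.33 (SE 0.48 each, edgeR, adjusted p = 1). With the replicate block it was -0.25 and -0.36 (SE 0.15 each, edgeR, adjusted p = 0.783 and 0.888). Tgm2, which codes for transglutaminase 2, had 12.3 ± 1.51 and 17.2 ± 0.857 CPM in the NLS-N-VEGF pool, a log2 ratio of 0.48 (SE 0.16, edgeR, adjusted p = 1). In the other pool Tgm2 had 14.0 ± 3.07 and 15.5 ± 1.53 CPM.

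Between suffixes, 12 of the 16 partner genes were called (4 higher, 8 lower). The median was -0.19, beside 0.01 over all features, of which 45.6% were called. Col3a1 had the largest difference, at -1.22 (SE 0.13, edgeR, adjusted p = 2.42e-06), with 158 to 295 CPM in suffix _290419 and 405 to 645 CPM in suffix _120519. The netrin receptor Unc5b, at -0.89 (SE 0.06), the neurexin Nrxn2, at -0.79 (SE 0.14), and the teneurin Tenm4, at -0.67 (SE 0.06), were also lower. Cd55, which codes for the ligand of Adgre5, was higher by 0.88 (SE 0.14, edgeR, adjusted p = 0.000102). In the NLS-N-VEGF pool Cd55 had 3.49 ± 1.74 CPM off dox and 6.09 ± 1.27 CPM on dox, a log2 ratio of 0.82 (SE 0.41, edgeR, adjusted p = 1). In the N-VEGF pool its means were 4.35 and 4.44 CPM, at 0.02 (SE 0.41, edgeR, adjusted p = 1). With the replicate block the Cd55 ratios were 0.859 (SE 0.201, edgeR, adjusted p = 0.155) and 0.085 (SE 0.200, edgeR, adjusted p = 0.962).

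Signalling genes downstream of the receptors were taken as 24 genes for G proteins, arrestins, adenylyl cyclases and further effectors, of which 23 were fitted. In the comparisons of dox and of insert 0 of 23 were called by edgeR or DESeq2, where edgeR called at most 0.0367% of all features. For dox in the NLS-N-VEGF pool 1 of 23 had an unadjusted p under 0.05 by each tool, against the 318 of 13608 features with edgeR. Gna13, which codes for a G protein subunit that couples Adgrg1 to RhoA, had 110 ± 2.47 and 112 ± 7.23 CPM without and with dox in the NLS-N-VEGF pool. The N-VEGF pool had 108 ± 3.30 and 107 ± 12.9 CPM (SD, n = 3). Between suffixes 11 of 23 were called (2 higher, 9 lower), a share near the 45.6% of all features. The arrestin Arrb1 had the largest of these differences, at -0.89 (SE 0.10, edgeR, adjusted p = 3.85e-06).

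The features whose pattern was most like that of Adgrg1 were ranked by Pearson's r over the 12 libraries, on log2 CPM with the mean of each library label subtracted. The libraries share labels and dox state, so r is a description of likeness, without a test. Of 12057 features, Etl4 had the highest r, 0.997, with 4.72 and 13.0 CPM without and with dox in the NLS-N-VEGF pool and 4.23 and 17.8 CPM in the N-VEGF pool. The insert came next, at 0.984. Map4k3, which codes for a kinase, followed at 0.968, then Sh3rf1, which codes for a scaffold protein with SH3 domains, at 0.962, and Extl2, which codes for a glycosyltransferase, also at 0.962. The lowest values belonged to Plpp3 at -0.938, Trib2 at -0.931 and Adamts1 at -0.926. Extl2 had dox log2 fold changes of only 0.14 (SE 0.09) and 0.19 (SE 0.09), so a high r went with a small effect there. Without subtracting the label means r fell to 0.709 for Extl2 and 0.837 for Sh3rf1, and stayed at 0.986 for Etl4.

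The other members were not near the top of this ranking. Adgra2 had an r of 0.441 with Adgrg1 and Adgrl2 of 0.273, followed by Adgre5 at -0.0188, Adgrl1 at -0.116 and Adgrl3 at -0.626. Adgrl3 thus had the lowest r of the members. Its mean was 8.34 CPM in the N-VEGF pool without dox and 6.27 to 6.66 CPM in the other groups.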

How the data were processed

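Libraries were prepared with the TruSeq kit v2. Per the submitters' processing notes and the study's methods, the authors trimmed single reads (Trim Galore, cutadapt 1.10), aligned them with TopHat2 2.1.0 and Bowtie2 2.2.6 to GRCm38 and counted them with HTSeq 0.6.1. The authors deposited unnormalized raw counts of reads for each gene, and the strand setting is not given in the sources used here. Reads carried no molecular identifiers.

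Counts were fitted here in R 4.3.3 with edgeR 4.0.16 (limma 3.58.1): filterByExpr by group kept 13608 features, libraries were scaled by TMM, and a quasi-likelihood model with a mean for each group took in all 12 libraries. A feature was called at a two-sided p under 0.05 after Benjamini-Hochberg adjustment over all features. The script was tested on simulated counts. SEs derive from the F statistic. Expression in CPM used the scaled library size. Lengths came from the GENCODE annotation of the same build and upstream windows from RefSeq (GRCm38.p6).

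Members and gene lists were chosen with earlier results of these data known. Named genes were the members and insert, relatives above 3 counts in every library of any group or called, at most 6 called partner or G-protein genes per comparison with Col3a1, Tgm2 and Gna13, neighbours within 250 kb averaging 1 CPM or more, and the 5 features most and 3 least like Adgrg1. Not every gene that these rules name is reported here.

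Library labels pair the samples across groups: deviations from group means correlated over 12058 features in all 18 pairs of the same label (r from 0.319 to 0.790). The suffix comparison added a term for the suffix. Alternatives were RLE scaling, DESeq2 1.42.0, a filter of only 1 count, at least 10 counts in every library, the replicate block, suffix _120519 alone, the 2 groups of a contrast alone and leaving out each library. The separate suffix effects by dox, the insert ratio, the GCGTG search and the block without library 1_120519 of N-VEGF cells without dox were chosen after seeing the data. That library had the fewest features with a count, 19976 against 20947 to 22889 in the others, and was kept in the main fit. Leaving it out of the block fit gave 58 dox calls in the NLS-N-VEGF and 31 in the N-VEGF pool, against 17 and 15.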

Additional observations from a re-analysis of the deposited data

How the results depend on the processing

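The replicate block changed 1 call among the members, that of Adgrg1 between the inserts with dox, and no other. Members called in that comparison numbered 0 without a block, and 1, Adgrg1 each time, with the replicate block, without a filter beyond 1 count, in suffix _120519 alone, and with the block and library 1_120519 of N-VEGF cells without dox left out. For dox in NLS-N-VEGF cells, where Adgrg1 was chosen on the effect and the count is no test, the count was 1, and 0 when only the 2 groups were fitted. Leaving out libraries gave 0 to 1, with 0 when any of the 3 NLS-N-VEGF libraries without dox or library 1_120519 of N-VEGF cells without dox was left out. All other counts of members stayed within 1.5 times of the main count. In suffix _120519 alone the dox effect of Adgrg1 in NLS-N-VEGF cells was 2.94. In the suffix comparison, for the 6 libraries whose loss ended the Adgrl1 call (1_120519 and 2_290419 of both NLS-N-VEGF groups, 2_120519 and 2_290419 of N-VEGF cells with dox) the adjusted p was 0.061 to 0.135. The following differences, near 0 and not called, changed sign. With the replicate block, NLS-N-VEGF over N-VEGF with dox was 0.001 for Adgrl2 and 0.001 for Adgrl3, and with a library also left out the difference of dox effects was 0.004 for Adgre5. In suffix _120519 alone Adgra2 was -0.004 with dox and the insert -0.369 without dox. Without a filter Adgre5 was -0.005 between suffixes. Leaving out libraries moved the difference of dox effects from -0.214 to 0.113 for Adgrl2, from -0.064 to 0.233 for Adgra2 and from -0.137 to 0.049 for Adgre5. With dox, NLS-N-VEGF over N-VEGF moved from -0.151 to 0.016 (Adgrl1), -0.198 to 0.091 (Adgrl2), -0.207 to 0.112 (Adgrl3), -0.074 to 0.185 (Adgra2) and -0.184 to 0.003 (Adgre5). Without dox it moved from -0.133 to 0.141 (Adgrl2), -0.155 to 0.116 (Adgra2), -0.101 to 0.016 (Adgre5) and -0.303 to 0.511 (insert). Between suffixes Adgre5 moved from -0.034 to 0.136. The cause of these changes was not tested. Over all features, dox called 3 in the NLS-N-VEGF and 5 in the N-VEGF pool, against 17 and 15 with the replicate block, 11 and 8 by DESeq2, 53 and 36 without a filter and 109 and 16 in suffix _120519 alone. Between the inserts with dox 0 features were called, against 2 with the block, 9 without a filter and 11 in suffix _120519 alone.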
